A study of Mus musculus with 6 samples.

Results

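Transcripts of 40 genes that fold, oxidise and dispose of proteins in the endoplasmic reticulum (ER), or that carry the unfolded-protein response (UPR), were compared between vitamin C-treated and untreated mouse embryonic stem (ES) cells. The genes were listed by function (chaperones, disulfide isomerases, stress sensors, degradation factors and procollagen folding factors), and each was read from the Affymetrix probe set that carries its symbol and no other. Of the 40 genes, 39 were measured, among 19938 genes in all. Fkbp10 was not analysed here. Ero1l and Ero1lb are named Ero1a and Ero1b in the probe annotation and were matched through synonyms and gene IDs. Where a gene had several probe sets, the one with the highest mean over the 6 arrays was used, which concerned Pdia4 and Dnajc3. The 2 probe sets of Dnajc3 held identical values, and the dimmer one of Pdia4 differed by -0.02 ± 0.13 (log2 difference ± SE).

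The treated group was Oct4-GiP ES cells given vitamin C (L-ascorbic acid 2-phosphate) at 200 μg/ml, with 3 arrays. The other group was the same cells without it, with 3 arrays. Treatment lasted 72 hours, began a day after seeding, and the medium of both groups was changed every day. Both groups grew on gelatin in N2B27 medium with LIF at 1000 U/ml, the MEK inhibitor PD0325901 at 1 μM and the GSK3β inhibitor CHIR99021 at 3 μM, so every value below was obtained under these inhibitors and in a single ES cell line. Replicates are called biological triplicates in the series text.

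The values are log2 signals, in which 1 unit is a 2-fold change. Array medians lay between 5.52 and 5.60. Arrays of the same group correlated across genes at 0.995 to 0.996, and arrays of different groups at 0.989 to 0.990. All 10 ES cell markers (Pou5f1, Nanog, Sox2, Zfp42, Esrrb, Klf2, Klf4, Tfcp2l1, Dppa3 and Tdgf1) had means above the upper quartile of genes. Of these, 3 were called higher (Nanog, Zfp42 and Dppa3) and 7 were not called, and their summed signal (log2) was 13.955 to 13.973 with vitamin C, against 13.862 to 13.880 without. These 3 calls were weak: with single arrays removed that of Dppa3 was lost in all 6 removals, that of Zfp42 in 5 (all but untreated replicate 3) and that of Nanog in 4 (vitamin C replicate 1 or 3, untreated replicate 1 or 3), with an adjusted p of at most 0.102, 0.0688 and 0.0577. Of 14 measured fibroblast markers, 8 were called higher with vitamin C, 1 lower and 5 were not called, and their summed signal (log2) ran from 11.05 to 11.08 with vitamin C and from 10.77 to 10.79 without. Acta2, Dcn, Tagln and Lox had the smallest p among those called, with log2 differences of 1.83, 1.06, 1.03 and 1.49. The mean of Lox lay below the lower quartile of genes. Pdgfrb was the marker called lower (-0.32, adjusted p = 0.0179), and Thy1, Pdgfra, Postn and S100a4 were not called. Vim, the brightest of this list, differed by 0.10 and was not called, and the sum without it ran from 9.848 to 9.891 with vitamin C and from 9.270 to 9.340 without. Of 16 extraembryonic endoderm markers, 4 were called higher and 12 were not called, with a summed signal (log2) of 11.67 to 11.73 with vitamin C and 11.38 to 11.46 without. Most of that gap lay in Sparc, the brightest of the list, which rose by 0.43, and the sum without it ran from 10.471 to 10.529 with vitamin C and from 10.339 to 10.449 without. Dab2 (0.89), Gata6 (0.39) and Col4a1 (0.28) were also called higher, and the calls of Dab2 and Gata6 held whichever single array was removed. The mean signal lay below the lower quartile of genes (4.61) for 4 of the fibroblast markers and for 2 of the endoderm markers. The part of these markers in the differences below was not tested, and in bulk RNA fewer cells of a type and less RNA per cell cannot be told apart.

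Proteins entering the ER are bound by the Hsp70 chaperone BiP (Hspa5) and the lectins calnexin and calreticulin, and their disulfide bonds are made and reshuffled by the protein disulfide isomerases, which the ERO1 oxidases recharge. When unfolded proteins build up, the sensors IRE1 (Ern1), ATF6 and PERK (Eif2ak3) are activated. ATF6 and the XBP1 factor made after IRE1 splicing then raise chaperone and degradation genes through ER stress elements in their promoters, while PERK works through translation and ATF4. Proteins that fail to fold are drawn back across the membrane and degraded, a route called ER-associated degradation.

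Differences between vitamin C-treated and untreated cells ran in both directions and were small. Of the 39 genes, 5 rose (Herpud1, Creld2, Dnajb11, Hspa5 and Xbp1), 2 fell (Ero1l and Sdf2l1) and 32 did not pass limma's test at an adjusted p under 0.05. That is 12.8% higher and 5.13% lower, where 5.75% of all 19938 genes were called higher and 7.4% lower. In either direction 17.9% of the genes were called, against 13.2% of all genes. These shares are not over genes of like signal, since the lowest mean among the 39 was 5.53 and the lower quartile of all genes 4.61. With genes below that quartile left out, 1413 genes were called higher and 1978 lower, and 5 and 3 of the 39 genes. Both counts over all genes thus grew although fewer genes were tested, while the 39 genes gained only P4hb (lower). So the 17.9% against 13.2% is not read as an excess among these genes. The median log2 difference of the 39 genes was 0.003 and that of all genes 0.01, and the median size of the difference without its sign was 0.12 for the 39 genes and 0.13 for all genes. The 3 vitamin C arrays lay wholly above the 3 untreated arrays for 10 genes and wholly below for 10, which together is 51.3% of the 39 genes. Among all genes 16.8% lay wholly above and 18.2% wholly below, together 35.0%. These shares, too, are not over genes of like signal. The largest called change among the 39 was that of Ero1l, 1.48-fold lower.

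**Figure D1:**
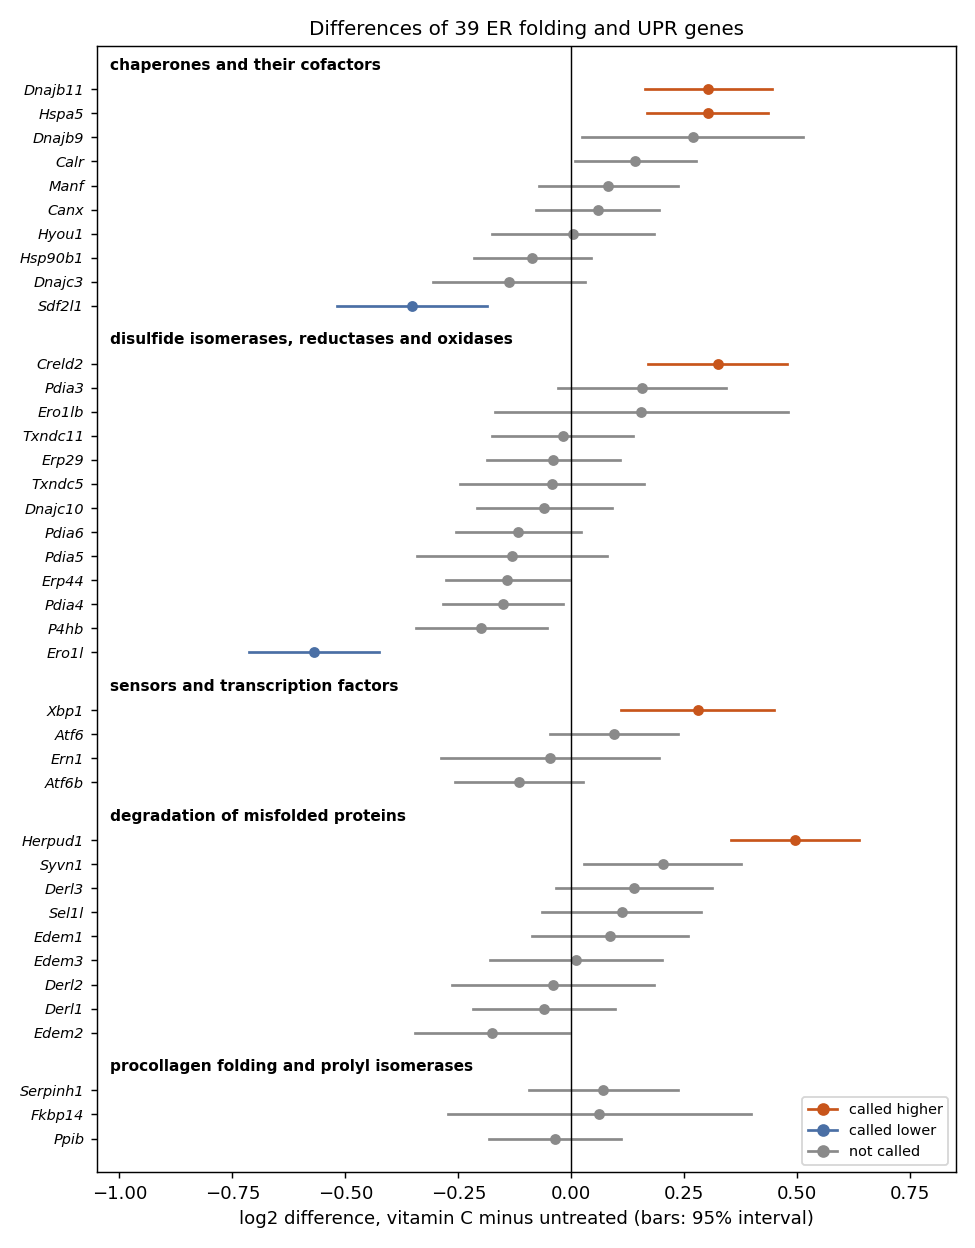
Log2 difference (vitamin C minus untreated, x axis) of the 39 measured genes, grouped by role, with 95% confidence intervals as bars (limma, 3 arrays a group). Herpud1 stands highest at 0.49 and Ero1l lowest at -0.57, and the 32 uncalled genes in grey lie between them.

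Among the 10 chaperones and their cofactors, 2 rose, 1 fell and 7 did not pass, with a median log2 difference of 0.07. Hspa5, the ER Hsp70 chaperone BiP and the most used marker of the UPR, had log2 signals of 10.25, 10.24 and 10.19 with vitamin C, against 9.93, 9.91 and 9.94 in untreated cells. Its lowest treated array stood above its highest untreated array, by more than the range within either group. It rose 1.23-fold (log2 difference 0.30 ± 0.06 SE, adjusted p = 0.0154). Dnajb11, the J-domain protein ERdj3 that hands substrates to BiP, had log2 signals of 9.37, 9.30 and 9.32 with vitamin C, against 8.98, 9.06 and 9.04 without. Its groups did not overlap either, and it too rose 1.23-fold (0.30 ± 0.06 SE, adjusted p = 0.0183). Sdf2l1, an ER protein that forms a complex with ERdj3 and is itself a known target of the UPR, went the other way. Its log2 signals were 8.58, 8.49 and 8.58 with vitamin C, against 9.001, 8.81 and 8.89 without. The groups did not overlap, and Sdf2l1 was 1.28-fold lower (-0.35 ± 0.07 SE, adjusted p = 0.0194). So the chaperone and its J-domain partner were higher while a partner of that J-domain protein was lower on the same arrays.

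The 3 calls were narrow. With 1 array left out, that of Hspa5 was lost without vitamin C replicate 1 or 2 or untreated replicate 2, that of Dnajb11 without vitamin C replicate 1 or 3 or untreated replicate 1 or 3, and that of Sdf2l1 without vitamin C replicate 1 or 2 or untreated replicate 1 or 3. The adjusted p then reached at most 0.0537, 0.0623 and 0.0622, and the log2 differences stayed within 0.29 to 0.32, 0.28 to 0.32 and -0.40 to -0.30, in the same gene order.

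**Figure D2:**
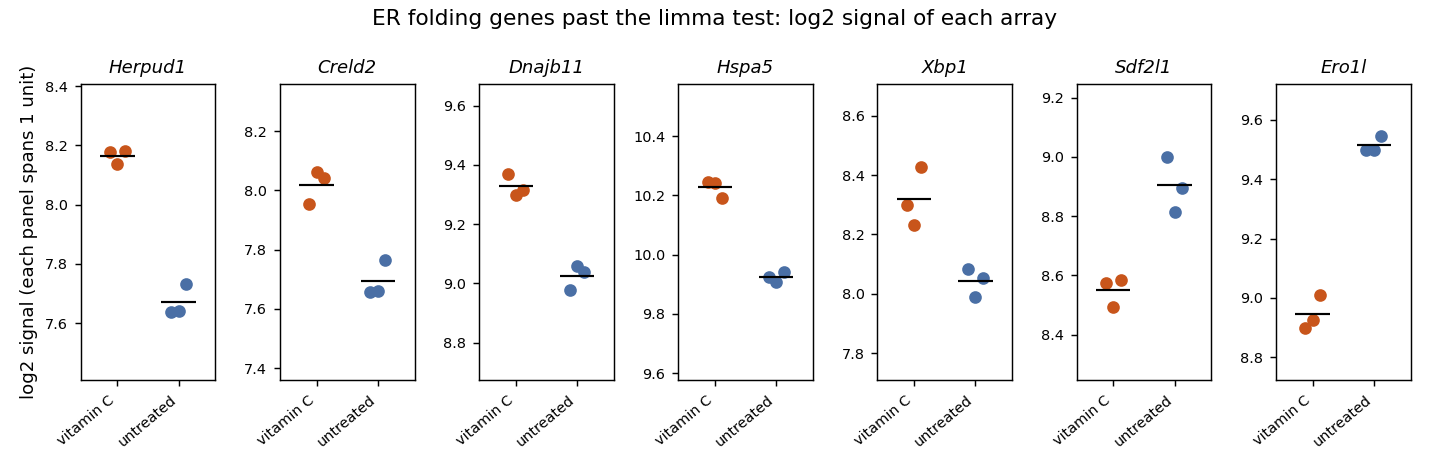
Log2 signal (y axis, 1 unit in each panel) of every array for the 7 genes past limma's test, with vitamin C arrays left of untreated arrays. Points are single arrays and lines are group means of 3, and the groups do not overlap in any of the 7 panels.

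The promoter of Hspa5 is shown because it carries the classical ER stress element, in which CCAAT binds the factor NF-Y and CCACG binds ATF6 or XBP1. Promoter windows here are RefSeq sequences of build GRCm38.p6, from 250 bases before the start site to 50 bases from it on, written 5′ to 3′ on the strand of the gene. The window of Hspa5 is chr2:34771840-34772139, plus strand, with the element in capitals. The window of Dnajb11 is chr16:22857595-22857894, plus strand, and its capitals mark a match to the related ER stress element II just after the start site.
Hspa5 promoter: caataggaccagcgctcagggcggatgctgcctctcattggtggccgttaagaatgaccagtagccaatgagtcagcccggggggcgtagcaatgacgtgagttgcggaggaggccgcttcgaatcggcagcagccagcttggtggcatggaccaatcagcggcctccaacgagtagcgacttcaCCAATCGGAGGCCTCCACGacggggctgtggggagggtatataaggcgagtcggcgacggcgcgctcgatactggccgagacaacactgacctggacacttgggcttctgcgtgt
Dnajb11 promoter: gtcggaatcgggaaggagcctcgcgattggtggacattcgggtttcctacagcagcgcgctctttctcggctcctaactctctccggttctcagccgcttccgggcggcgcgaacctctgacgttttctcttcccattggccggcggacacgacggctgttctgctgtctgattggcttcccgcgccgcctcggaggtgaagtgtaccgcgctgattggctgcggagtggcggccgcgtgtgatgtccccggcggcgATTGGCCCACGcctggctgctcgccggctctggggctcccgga

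The other 7 chaperone genes did not pass, and their values follow as measured. Dnajb9, the BiP cofactor ERdj4 that restrains IRE1, differed most among them, with log2 signals of 7.53, 7.84 and 7.52 with vitamin C, against 7.43, 7.41 and 7.24 without. All 3 treated arrays stood above the untreated ones, but vitamin C replicate 2 was well above its group, and the difference of 0.27 ± 0.11 (SE) had an adjusted p of 0.142. Calreticulin (Calr), a lectin chaperone that also binds calcium, was measured at 10.46, 10.49 and 10.50 with vitamin C, against 10.38, 10.31 and 10.34 without. These groups were also apart, at a difference of 0.14 ± 0.06 (SE, adjusted p = 0.153). Its membrane-bound relative calnexin (Canx) differed by 0.06 ± 0.06 (SE), with a 95% interval from -0.08 to 0.19. Hsp90b1, the ER Hsp90 chaperone GRP94, had signals of 10.90 to 10.91 with vitamin C, against 10.97 to 11.01 without, a difference of -0.09 ± 0.06 (SE, adjusted p = 0.356). Hyou1, an Hsp110-type nucleotide exchange factor of BiP, differed by 0.003 ± 0.08 (SE) with overlapping groups. Dnajc3, the co-chaperone p58IPK that inhibits PERK, differed by -0.14 ± 0.07 (SE, adjusted p = 0.257), and Manf, a secreted BiP-binding factor, by 0.08 ± 0.07 (SE).

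Among the 13 disulfide isomerases, reductases and oxidases, 1 rose, 1 fell and 11 did not pass, and the median log2 difference was -0.06. In this role 10 of the 13 differences were below 0, as were 9417 of the 19938 differences of all genes. The vitamin C arrays lay wholly below the untreated ones for 5 of the 13 and wholly above for 1. Among all genes, 18.2% lay wholly below and 16.8% wholly above. Ero1l, the oxidase that draws electrons from protein disulfide isomerase and passes them to oxygen, had log2 signals of 8.90, 8.92 and 9.01 with vitamin C, against 9.50, 9.50 and 9.55 without. The gap between the groups was several times the range within either. Ero1l fell by 0.57 ± 0.06 (SE) on the log2 scale, with an adjusted p of 0.0019, and its call held whichever single array was removed (adjusted p 0.00713 to 0.0112). Ero1l is also a known target of the hypoxia-inducible factors. Its paralog Ero1lb had log2 signals of 5.50, 5.57 and 5.74 with vitamin C, against 5.15, 5.52 and 5.68 without, and these groups overlapped. Ero1lb differed by 0.15 ± 0.14 (SE, adjusted p = 0.513), with a 95% interval from -0.17 to 0.48, which does not reach the interval of Ero1l, -0.71 to -0.43. Whether the response of Ero1lb differed from that of Ero1l was not tested.

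The promoter window of Ero1l is shown for ACGTG, the form of the hypoxia response core that was searched. It holds no other searched letters. The form GCGTG was not searched, and it stands unmarked in this window. The ACGTG letters lie on the strand opposite to the gene and read CACGT in capitals here, in chr14:45318523-45318822, minus strand. ACGTG is also in the windows of Hspa5 (-155 to -151 from the start site) and Herpud1 (-45 to -41, overlapping ER stress element II), both of which rose. Of the 7 called genes, 2 with ACGTG were thus higher and 1 was lower. Among the 34 of the 39 genes that had a window, 19 held ACGTG. Whether these letters had a part in any difference was not tested.
Ero1l promoter: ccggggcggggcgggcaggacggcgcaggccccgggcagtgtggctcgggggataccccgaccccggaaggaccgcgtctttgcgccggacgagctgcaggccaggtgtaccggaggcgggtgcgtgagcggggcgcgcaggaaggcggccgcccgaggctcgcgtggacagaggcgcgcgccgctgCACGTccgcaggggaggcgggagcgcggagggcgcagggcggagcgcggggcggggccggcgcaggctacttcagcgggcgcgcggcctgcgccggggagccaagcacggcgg

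Creld2 was the gene of this role that rose. It encodes an ER protein with disulfide isomerase activity that is induced in ER stress. Its log2 signals were 7.95, 8.06 and 8.04 with vitamin C, against 7.66, 7.66 and 7.77 without, so that all treated arrays were higher. Creld2 rose 1.25-fold (0.32 ± 0.07 SE, adjusted p = 0.0196). The call was lost without vitamin C replicate 2 or 3 or untreated replicate 1 or 2 (adjusted p at most 0.0650), where the difference stayed between 0.30 and 0.36. Its promoter window, chr15:88819396-88819695, plus strand, holds the ER stress element on the strand opposite to the gene, in capitals.
Creld2 promoter: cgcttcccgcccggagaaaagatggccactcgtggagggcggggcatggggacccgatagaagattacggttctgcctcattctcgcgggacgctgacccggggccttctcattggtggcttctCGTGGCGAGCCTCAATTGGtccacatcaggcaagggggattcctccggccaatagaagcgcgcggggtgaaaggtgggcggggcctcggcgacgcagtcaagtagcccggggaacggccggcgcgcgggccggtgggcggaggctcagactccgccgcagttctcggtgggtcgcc

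The protein disulfide isomerases themselves did not pass. P4hb, protein disulfide isomerase and at the same time the beta subunit of collagen prolyl 4-hydroxylase, came closest. Its log2 signals were 10.41, 10.50 and 10.51 with vitamin C, against 10.64, 10.68 and 10.71 without. All 3 treated arrays were lower, at a difference of -0.20 ± 0.06 (SE, adjusted p = 0.0773). It passed the test when genes below the lower quartile of signal were left out (adjusted p = 0.0432). Pdia4, a large isomerase with several thioredoxin domains, was measured at 9.31, 9.33 and 9.28 with vitamin C, against 9.44, 9.47 and 9.46 without, also apart (-0.15 ± 0.06 SE, adjusted p = 0.129). Pdia6 at -0.12 ± 0.06 and Erp44, which retains ERO1 proteins in the ER, at -0.14 ± 0.06 (SE) had groups apart in the same direction, with adjusted p-values of 0.238 and 0.160. Pdia3, the partner of calnexin and calreticulin that works on glycoproteins, differed by 0.16 ± 0.08 (SE, adjusted p = 0.246) with overlapping groups. The remaining 5 genes, Pdia5, Txndc5, Txndc11, Erp29 and the reductase Dnajc10, overlapped between groups and differed by -0.13 to -0.02.

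**Figure D3:**
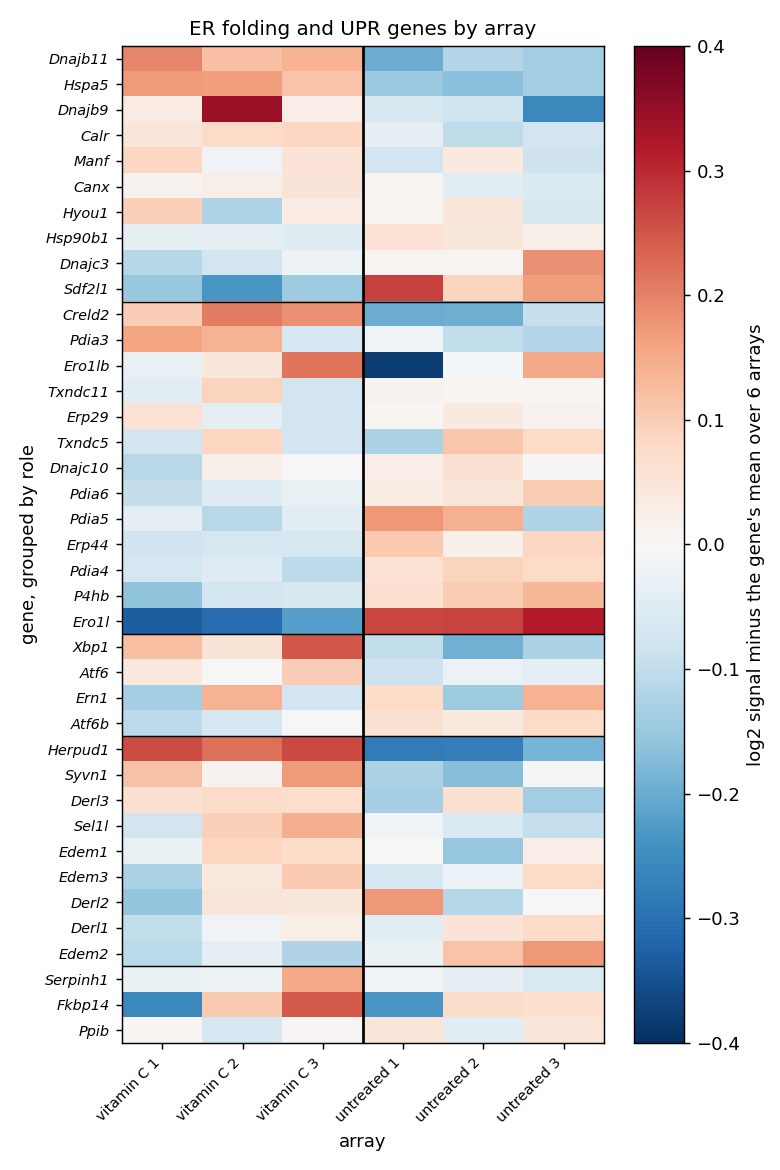
Log2 signal of each array (columns, vitamin C left of untreated) minus the mean of the gene over the 6 arrays, for 39 genes in rows grouped by role. Ero1l and Sdf2l1 are low and Herpud1, Hspa5, Dnajb11 and Creld2 are high in all 3 vitamin C arrays, and single arrays stand out for Dnajb9 and Ero1lb.

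Of the 4 sensors and transcription factors, 1 rose and 3 did not pass. Xbp1, whose messenger is spliced by IRE1 to give an active transcription factor, had log2 signals of 8.30, 8.23 and 8.43 with vitamin C, against 8.08, 7.99 and 8.05 without. The groups were apart, although the treated arrays spread over 0.20. Xbp1 rose 1.21-fold (0.28 ± 0.07 SE, adjusted p = 0.0450), but removing any single array ended this call (adjusted p 0.0552 to 0.127), as did testing all probe sets together (0.0891). Whether its probe set separates spliced from unspliced messenger is not given in the sources used here. The sensor genes gave 0.09 ± 0.06 (SE, adjusted p = 0.351) for Atf6, -0.12 ± 0.06 (SE, adjusted p = 0.252) for its relative Atf6b and -0.05 ± 0.10 (SE, adjusted p = 0.805) for Ern1. Transcript levels do not show whether the sensor proteins were active.

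Of the 9 genes of ER-associated degradation, 1 rose and 8 did not pass, with a median log2 difference of 0.09. Herpud1, a membrane protein that organises the degradation complex and is among the genes most strongly induced in ER stress, was the largest rise of all 39 genes. Its log2 signals were 8.18, 8.14 and 8.18 with vitamin C, against 7.64, 7.64 and 7.73 without. The groups were far apart relative to their own ranges. Herpud1 rose 1.41-fold (0.49 ± 0.06 SE, adjusted p = 0.00307), and the call held whichever single array was removed (adjusted p 0.00947 to 0.0165). Its promoter window, chr8:94386179-94386478, plus strand, holds ER stress element II, in capitals.
Herpud1 promoter: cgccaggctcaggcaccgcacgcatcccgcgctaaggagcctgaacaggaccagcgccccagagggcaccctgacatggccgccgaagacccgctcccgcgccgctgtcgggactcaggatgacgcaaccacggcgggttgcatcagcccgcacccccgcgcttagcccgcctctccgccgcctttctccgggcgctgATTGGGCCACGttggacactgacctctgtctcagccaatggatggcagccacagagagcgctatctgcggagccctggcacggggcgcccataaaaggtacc

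The other degradation genes spread around 0. Syvn1, the ubiquitin ligase HRD1 at the centre of the complex, was measured at 8.21, 8.11 and 8.27 with vitamin C, against 7.97, 7.93 and 8.09 without. Its groups were apart by a narrow gap, and it differed by 0.20 ± 0.07 (SE, adjusted p = 0.120). Sel1l, the scaffold that steadies HRD1, differed by 0.11 ± 0.08 (SE). The 3 mannosidase-like factors that mark glycoproteins for disposal did not move together, with Edem1 at 0.09, Edem2 at -0.18 and Edem3 at 0.01, and the arrays of Edem2 were all lower with vitamin C (adjusted p = 0.160). The derlins, rhomboid-type proteins of the channel, were likewise mixed, with Derl1 at -0.06, Derl2 at -0.04 and Derl3 at 0.14 (adjusted p 0.266 to 0.820).

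None of the 3 measured factors of procollagen folding passed. Serpinh1, the collagen-specific chaperone HSP47, had log2 signals of 7.01, 7.01 and 7.18 with vitamin C, against 7.02, 6.998 and 6.97 without, a difference of 0.07 ± 0.07 (SE, adjusted p = 0.560). The prolyl isomerase cyclophilin B (Ppib) differed by -0.04 ± 0.06 (SE) and Fkbp14, another prolyl isomerase of the ER, by 0.06 ± 0.14 (SE). In the same arrays the fibroblast markers Col1a1, Col1a2 and Col3a1, the collagen chains that these factors fold, were called higher by 0.55, 0.47 and 0.37. Of the 32 genes that did not pass, all 32 had 95% intervals within 1.5-fold in either direction and 29 within 1.3-fold. The widest bound was that of Dnajb9, at 0.51.

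Matches to the known stress elements were then set beside the differences. RefSeq windows were found for 34 of the 39 genes, and not for Hyou1, Erp29, Manf, Atf6 and Derl1. The full ER stress element, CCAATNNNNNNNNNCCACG on either strand, was in the windows of 10 of these 34 genes (29.4%) and of 37 of 27025 genes in the whole table (0.137%). ER stress element II, which is ATTGG and CCACG parted by 1 free base (N), was searched on both strands. It was in 2 of the 34 (5.88%), against 0.0444% of all genes. The UPR element, TGACGTGG on either strand, was in 2 of the 34 (5.88%), against 0.714% of all genes. The 39 genes were listed for folding and the UPR, which acts through such elements. Their higher shares therefore describe how the list was made, not these arrays. The shorter core ACGTG, also searched on both strands, which lies within the UPR element and can overlap the CCACG of the others, was in 19 of the 34 windows (55.9%), against 21.8% of all genes. The 11 matches to the full element, from 2 genes that rose and 8 that did not pass, are printed below in the direction of the motif. Capitals are its fixed letters, which the search required of every match. That of Hspa5 spans -65 to -47 from the start site, that of Creld2 -126 to -108 and that of Syvn1 -44 to -26, and Hsp90b1 has 2 of them.
Hspa5: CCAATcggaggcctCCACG
Hsp90b1: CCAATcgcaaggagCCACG
Hsp90b1: CCAATcgtgcctcaCCACG
Canx: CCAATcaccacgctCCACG
Calr: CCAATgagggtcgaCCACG
Pdia6: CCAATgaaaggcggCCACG
Ero1lb: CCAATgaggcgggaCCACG
Dnajc3: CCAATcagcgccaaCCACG
Creld2: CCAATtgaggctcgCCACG
Syvn1: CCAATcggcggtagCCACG
Derl3: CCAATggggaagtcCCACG

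Among the 10 genes with the full element, 2 rose (Hspa5 and Creld2), 0 fell and 8 did not pass, and their differences ran from -0.14 for Dnajc3 to 0.32 for Creld2, with a median of 0.14. Both genes with ER stress element II, Herpud1 and Dnajb11, rose. Both genes with the UPR element, Txndc5 and Txndc11, overlapped between groups. Of the 20 genes whose windows held none of the 3, 1 rose (Xbp1), 2 fell (Ero1l and Sdf2l1) and 17 did not pass, with a median of -0.04. So 4 of the 5 genes that rose held one of the 2 ER stress elements, as did 8 that did not pass, and neither gene that fell did. Only the exact letters were searched, so variant elements were not counted. Outside the 39 genes, 11 measured genes held the full element, and 0 of them passed in either direction (median 0.05). Of 7 others with element II, 1 passed, Rcl1, which was higher. Of 140 others with the UPR element, 13 were higher, among them the degradation gene Ube2j1, 9 were lower and 118 did not pass (median 0.01). A match of letters is a description of the window and was not tested as a binding site.

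**Figure D4:**
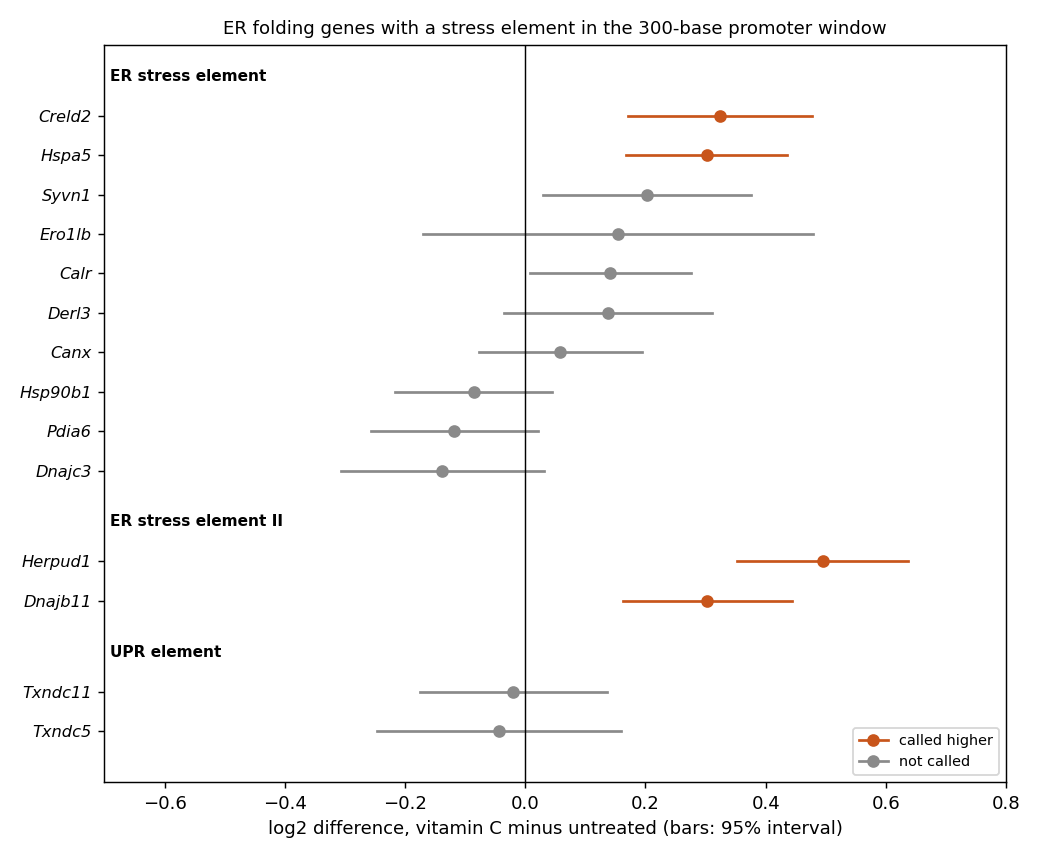
Log2 difference (vitamin C minus untreated, x axis) with 95% intervals for the 14 genes whose promoter window holds the full ER stress element, ER stress element II or the UPR element. Genes called higher are coloured, and 7 of the 10 genes with the full element lie above 0.

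The remaining genes of the ER secretory route are given by list, with the share of each list that was called. Among all genes, 5.75% were called higher and 7.4% lower. The lists are small, and no set test was run. Of 34 other folding factors, 4 fell (11.8%), 0 rose and 30 did not pass, with a median of -0.05. Clgn, the testis relative of calnexin, fell most, by 0.70 ± 0.06 (SE, adjusted p = 0.000632), followed by the prolyl isomerase gene Fkbp11 at -0.54 ± 0.08, Sdf2, the constitutive relative of Sdf2l1, at -0.41 ± 0.07 and Cnpy4 at -0.38 ± 0.08 (SE). Sdf2 averaged 7.94 ± 0.079 with vitamin C and 8.35 ± 0.027 without (SD, n = 3 each), so both SDF2 proteins that bind ERdj3 had lower transcripts. Of 18 genes of N-glycosylation and glycoprotein quality control, 3 fell (16.7%), 0 rose and 15 did not pass (median -0.12). Those that fell were the mannosidase Man1b1 (-0.42), the glucosidase II subunit Prkcsh (-0.29) and the oligosaccharyltransferase subunit Rpn2 (-0.27). Of 16 genes of translocation into the ER, 1 rose (6.25%), Srprb of the signal recognition particle receptor (0.23), and 15 did not pass (median 0.08).

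Of 19 other degradation genes, 3 rose (15.8%), 2 fell (10.5%) and 14 did not pass (median 0.002). The ubiquitin-conjugating enzyme gene Ube2j1, a partner of HRD1, rose by 0.51 ± 0.13, Herpud2, the paralog of Herpud1, rose by 0.38 ± 0.07 and Nploc4, a cofactor of the extraction ATPase, rose by 0.25 ± 0.07 (SE). The ligase gene Rnf5 fell by 0.38 ± 0.08 and the lectin gene Erlec1 by 0.32 ± 0.08 (SE). Of 14 genes of the PERK arm and other UPR signalling, 3 rose (21.4%), 1 fell (7.14%) and 10 did not pass (median 0.03). Atf4, the transcription factor translated when PERK or other kinases slow translation, averaged 9.94 ± 0.071 with vitamin C and 9.50 ± 0.075 without (SD, n = 3 each), a rise of 0.44 ± 0.07 (SE, adjusted p = 0.00825). Its target Trib3, a pseudokinase, rose by 0.61 ± 0.09 (SE, adjusted p = 0.00636), and Creb3l1, a membrane-bound factor of secretory cells, by 0.60 ± 0.10 (SE, adjusted p = 0.0104). The PERK gene Eif2ak3 fell by 0.32 ± 0.08 (SE, adjusted p = 0.0349), and Ddit3, the CHOP factor at the end of this arm, differed by 0.22 ± 0.09 (SE, adjusted p = 0.142). Ddit3 and Nploc4, like Plod2, Rcl1, Vim and the collagen genes Col1a1, Col1a2 and Col3a1, were chosen for mention after their values were seen. So were the markers Pdgfrb, Thy1, Pdgfra, Postn, S100a4, Dab2, Gata6 and Col4a1.

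Of 12 genes of collagen prolyl and lysyl hydroxylation, 3 fell, 0 rose and 9 did not pass (median -0.05). The list holds hydroxylases, which use ascorbate as a cofactor, and proteins that work with them. P4ha1, the catalytic subunit that pairs with the P4hb protein, averaged 6.01 ± 0.15 with vitamin C and 7.07 ± 0.033 without (SD, n = 3 each), a fall of 1.07 ± 0.09 (SE, adjusted p = 0.00062). P4ha2 fell by 0.41 ± 0.06 and Plod1 by 0.53 ± 0.09 (SE). P4ha1 and Ero1l are both known targets of hypoxia-inducible factors, and both were lower with vitamin C. Plod2, a lysyl hydroxylase gene that is a known target of them too, lay the other way. Its log2 signals were 9.04, 9.18 and 9.16 with vitamin C, against 8.94, 8.93 and 8.85 without. The groups were apart (0.22 ± 0.07 SE, adjusted p = 0.0734). Targets of hypoxia-inducible factors were not listed as a set, and the part of these factors in any difference was not tested. The calls of Clgn, Fkbp11, Sdf2, Atf4, Trib3, Creb3l1, P4ha1, P4ha2 and Plod1 held whichever single array was removed. Those of Nploc4 and Srprb were lost in each such removal (adjusted p at most 0.128 and 0.131). Those of Cnpy4, Prkcsh, Rpn2, Erlec1, Ube2j1 and Eif2ak3 held in 1 of the 6, namely without vitamin C replicate 3 for Cnpy4 and Prkcsh, vitamin C replicate 2 for Rpn2 and Eif2ak3, vitamin C replicate 1 for Erlec1 and untreated replicate 1 for Ube2j1. Man1b1 was lost without vitamin C replicate 1 or 3 or untreated replicate 2 or 3, Rnf5 without vitamin C replicate 1 or 2 and Herpud2 without vitamin C replicate 3 or untreated replicate 1. With the trend against mean signal subtracted, Erlec1 (adjusted p = 0.0537) and Eif2ak3 (0.0556) were lost, with quantile normalization Erlec1 (0.0597) and with arrays centred on their medians Srprb (0.0549).

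**Figure D5:**
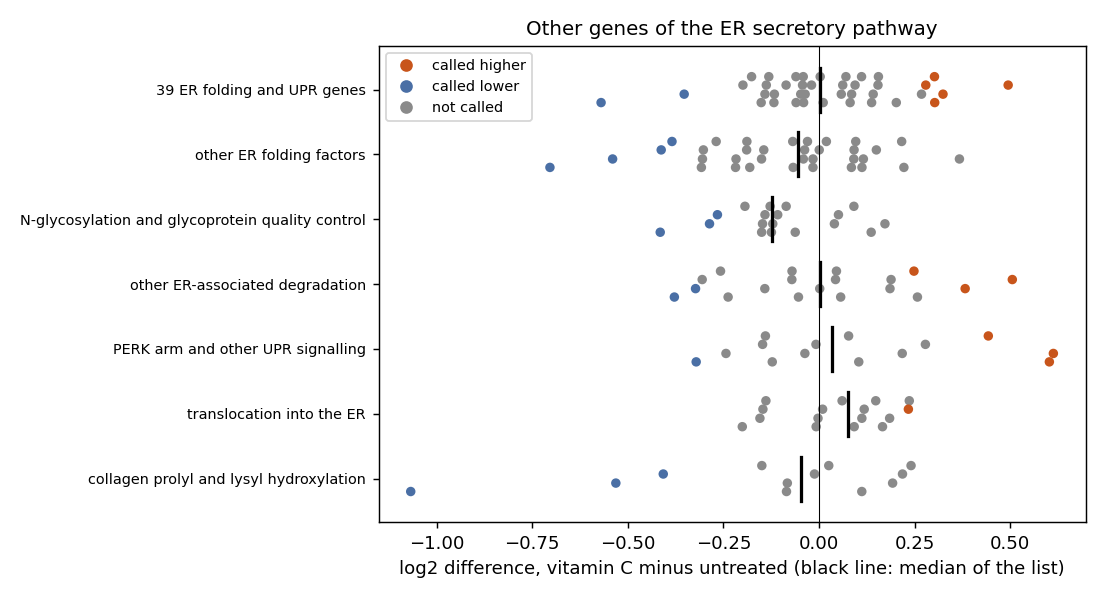
Log2 difference (vitamin C minus untreated, x axis) of every measured gene in the 39 ER folding and UPR genes and in 6 other lists of the secretory pathway, with list medians as black lines. The medians lie between -0.12 and 0.08, and P4ha1 is the lowest point at -1.07.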

How the data were processed

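The assay was a one-colour Affymetrix array, with 3 of vitamin C-treated and 3 of untreated ES cells, grouped by their titles. Per the labels' protocols, column-purified RNA was amplified with a whole-transcriptome kit and biotin-labelled. The deposited values are log2 signals per probe set. RMA is the tool per the submitters' processing notes, with software and version not given in the sources used here. The log2 scale was read from the range of the values. RMA includes quantile normalization in general, which would hide a shift common to every gene, and it tends to shrink differences of dim probe sets.

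Of 35557 probe sets, 21789 carried 1 symbol and gave 19938 genes. Vitamin C minus untreated was fitted over all genes in R 4.3.3 with limma 3.58.1 (lmFit, then eBayes, without a covariate), with Benjamini-Hochberg adjustment over all genes and a call at an adjusted p under 0.05. Every adjusted p is from this test unless a setting is named. The fit was tested on simulated data. Levels of different probe sets were set side by side only to place markers among all genes and to sum them, as a rough guide. The sums without the brightest marker were added after seeing the data. No detection calls were used, and precision is limited by the number of arrays. Members and lists were chosen with earlier results of these data known. Named genes were all members and up to 4 called genes of each pathway list with the smallest p, with markers named to give their levels and the exceptions stated in the text. No protein sequences were used here. Alternatives changed the spread model, normalization, dim-gene filter, probe-set handling, array weights, threshold, pairing and arrays included. Plots were made in matplotlib 3.10.9.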

Additional observations from a re-analysis of the deposited data

How the results depend on the processing

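Of 624 recomputed differences of the 39 genes, over 16 settings, 569 kept direction and side of the threshold, 30 lost a call, 7 gained one and 18 changed sign. No sign change was in a called gene, and the genes concerned differed by at most 0.06 in the reported fit. A trended and robust spread model called 1731 genes higher and 2420 lower, and 8 and 5 of the 39 genes, adding Calr, Pdia3 and Syvn1 (higher) and Hsp90b1, Pdia4 and P4hb (lower). At an adjusted p under 0.01, 405 and 496 genes were left, with 1 of the 39 higher (Herpud1) and 1 lower (Ero1l). With 1 array left out, 663 to 733 genes were called higher and 820 to 988 lower, and 2 to 3 and 1 to 2 of the 39 genes, from fits with fewer arrays. With the replicate block, 763 genes were called higher and 960 lower, and 2 of the 39 genes were higher (Herpud1 and Creld2), Hspa5, Dnajb11 and Xbp1 being lost at adjusted p-values of 0.0530, 0.0602 and 0.0740. Deviations of same-numbered arrays from their group means correlated at 0.052, 0.0096 and -0.024, so the numbers were not taken as pairs. Among the called list genes outside the 39, the block lost Prkcsh, Rpn2, Erlec1, Nploc4, Ube2j1, Rnf5, Eif2ak3, Srprb, Nanog, Zfp42, Dppa3 and Col4a1 (adjusted p 0.0511 to 0.108), and testing all probe sets lost Cnpy4, Prkcsh, Rpn2, Erlec1, Nploc4, Ube2j1, Eif2ak3, Srprb, Dppa3, Lum and Col4a1 (0.0520 to 0.102).

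Differences changed sign for Hyou1 under median centring of the arrays (-0.000302) and under array weights (-0.00128), and for Txndc11 with quantile normalization (0.026) and with the trend subtracted (0.021). With 1 array left out, the ranges that crossed 0 were -0.043 to 0.065 for Hyou1, -0.069 to 0.014 for Txndc11, -0.13 to 0.010 for Ern1, -0.108 to 0.035 for Derl2, -0.038 to 0.077 for Edem3, -0.117 to 0.00156 for Txndc5 and -0.045 to 0.207 for Fkbp14. The cause of these changes was not tested beyond the settings themselves.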
